A study of Mus musculus with 36 samples.

Results

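Adgre1, which encodes F4/80, is the surface protein most often used to recognise mouse macrophages, and it is described here with 6 other widely used macrophage markers: Adgre4, Adgre5, Cd68, Cd14, Lyz1 and Lyz2. The 7 genes, of 30205 genes in the data, were selected on the high level of Adgre1 already seen in macrophage and osteoclast cultures of mice lacking Mir324. For that reason the genotype differences of all 7 genes in those cultures, and every myeloid difference of Adgre1, are given as descriptions without a test. RNA was sequenced from 36 libraries of cultured mouse bone cells, 6 in each of 6 groups, from mice 20 weeks old that were either wild type (WT) or labelled as lacking Mir324 (null). Bone marrow macrophages (BMM), the precursors of osteoclasts, were expanded from marrow for 3 days in 100 ng/mL of M-CSF, a macrophage growth factor, and then held for 5 days in 30 ng/mL. Osteoclasts (OC), which resorb bone, came from the same precursors, which received 50 ng/mL of RANK-L, the osteoclast-inducing cytokine, on top of 30 ng/mL of M-CSF over those 5 days. Osteoblasts (OB), which form bone, grew out of bone chips over about 6 weeks and were then kept for 18 days with 2 mM beta-glycerophosphate and 50 µg/mL ascorbic acid. The labels do not describe the Mir324 allele, name no sort or purification of the outgrown osteoblasts, and do not say whether libraries of a group came from separate mice, so p-values measure only the spread between these libraries.

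F4/80, EMR4 (Adgre4) and CD97 (Adgre5) belong to the EGF-like adhesion G protein-coupled receptors, which carry a long extracellular part with EGF-like repeats in front of a membrane-spanning part. CD97 is found on many leukocytes and binds CD55, Thy1 and integrins. CD68 is a heavily glycosylated lysosomal membrane protein related to the LAMP proteins, CD14 is the co-receptor that hands lipopolysaccharide to TLR4, and the lysozymes encoded by Lyz1 and Lyz2 cut bacterial cell walls, Lyz2 being the form of macrophages and Lyz1 the form of intestinal Paneth cells. RANK-L turns macrophages into osteoclasts, a step in which much of the macrophage program is known to decline.

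Positions are on GRCm38 (GENCODE M21). Adgre1 (ENSMUSG00000004730) spans chr17:57358691-57483527 on the plus strand, and Adgre4 (ENSMUSG00000032915), chr17:55749984-55853662, lies 1505028 bases away on the same strand. Adgre5 (ENSMUSG00000002885) spans chr8:83723251-83741326 on the minus strand. Cd68 (ENSMUSG00000018774), chr11:69664213-69666153 on the minus strand, is on the same chromosome as Mir324, 345890 bases from it. Lyz1 (ENSMUSG00000069515), chr10:117287797-117292868, and Lyz2 (ENSMUSG00000069516), chr10:117277331-117282321, stand 5475 bases apart on the minus strand.

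The microRNA that the null mice lack gives 2 mature forms, shown because a match to their seed in a 3′ UTR is the usual mark of a candidate target. They are printed 5′ to 3′ from RefSeq, with the seed (bases 2 to 8) in capitals.
mmu-miR-324-5p: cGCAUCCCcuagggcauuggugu
mmu-miR-324-3p: cCACUGCCccaggugcugcu
The longest annotated 3′ UTR of each of the 7 genes was searched on the transcript strand for the 7 bases complementary to each seed, GGGATGC for the 5p form and GGCAGTG for the 3p form. A match was found in 1 gene, Adgre5. Its longest 3′ UTR, of 622 bases, is that of the transcript Adgre5-208, which had a mean share of 3.53 to 11.7% of the gene's TPM by group. The UTRs of the other Adgre5 transcripts were not searched. The UTR of Adgre5-208 holds GGGATGC at position 100 from its start, in capitals within its 30-base surrounding.
Adgre5 3′ UTR: catataaagaaGGGATGCaaacccagcaat
Of 13544 genes that had an annotated 3′ UTR and were tested in at least 1 genotype comparison, 9.7% hold the 5p match and 17.7% the 3p match. A match is a description of the letters, not evidence of binding.

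The lysozyme pair is shown for how alike its members are, because reads from near-identical copies can be split wrongly between them. Their coding sequences were identical at 422 of 444 bases (95.0%), and 34.2% of the 31-base stretches of the Lyz1 transcript also occur in Lyz2. The promoters are printed from RefSeq (GRCm38.p6) from 150 to 51 bases before the RefSeq start, with the 21 bases that differ in capitals. The first is chr10:117292919-117293018 and the second chr10:117282323-117282422, both on the minus strand.
Lyz1: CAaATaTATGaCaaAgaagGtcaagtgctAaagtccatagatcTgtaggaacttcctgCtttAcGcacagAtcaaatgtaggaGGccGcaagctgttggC
Lyz2: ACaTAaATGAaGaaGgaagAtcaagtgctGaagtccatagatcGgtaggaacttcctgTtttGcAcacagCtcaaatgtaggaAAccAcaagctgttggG
The 50 bases nearest the start were identical and are not printed. Adgre1 is far less like its relatives: its coding sequence shared 45.9% of aligned positions with Adgre4 and 48.1% with Adgre5. No 31-base stretch of the main Adgre1, Adgre4, Cd68 or Cd14 transcript occurs in a transcript of another gene on either strand. In Adgre5, 21.5% of these stretches, 636 of 2956, also occur in the opposite strand of Ddx39, a gene that overlaps its end. Since the counting is not stated to use strand, Adgre5 values are uncertain to that extent, as are those of Lyz1 and Lyz2.

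Each library held 14118972 to 26347581 estimated counts, and levels are given as CPM, counts per library after TMM scaling to a shared total. Of 18 other macrophage genes, none was at 0 in any whole group, and their summed level was highest in WT BMM (20667 to 23132 CPM) and lowest in null OB (4760 to 5673). Of 10 osteoclast genes, among them cathepsin K, the summed level was 29653 to 31879 CPM in WT OC and 421 to 772 CPM in null OC, where Calcr was at 0, so the null OC cultures had the RANK-L treatment but little of the osteoclast transcript set. In BMM the sum was 220 to 245 CPM in WT and 309 to 397 in null. With RANK-L, 7 of the 10 rose and none fell in null cells, where 12.9% of all genes were called. Cathepsin K (Ctsk) went from 3.98 ± 0.983 CPM in null BMM to 80.9 ± 69.2 in null OC. Osteoblast genes summed to at least 54571 CPM in every OB library. Osteoblast cultures of both genotypes also held macrophage and osteoclast transcripts. Lymphoid and erythroid genes stayed under 1 CPM in sum in every library. Neutrophil genes (10 in the list) summed to 32.6 to 51.7 CPM in WT BMM, 90.9 to 114 in null BMM, 6.14 to 7.41 in WT OC and 53.6 to 97.5 in null OC, and in summed TPM the BMM means were 22.6 in WT and 111 in null. Elane and Retnlg were at 0 in all 4 of these groups. S100a8 had 0.164 CPM in WT and 10.7 in null BMM, and 0.114 and 6.95 in OC. Csf3r had 42.2 and 88.0 in BMM and 2.28 and 69.6 in OC, most of the sum except in WT OC. Of the 3 neutrophil genes tested, 2 were higher and 1 was not called in null BMM. In null OC 2 were higher and 1 was lower. The shares of all genes called were 52.3% and 65.6%. The summed level of 10 osteoblast genes also differed by genotype in the myeloid cultures. It was 10.5 to 29.2 CPM in WT BMM, 53.1 to 128 in null BMM, 12.97 to 15.1 in WT OC and 56.4 to 267 in null OC. Of the 10, 4 were tested, 3 higher and 1 lower in null BMM, and 2 higher and 2 not called in null OC. The shares of all genes called were 52.3% and 65.6%. Most of the mean sum in null OC, 114 CPM, came from Col1a1 (84.9 ± 48.7) and Col1a2 (17.5 ± 13.4), with Bglap and Sp7 at 0. In WT OC Col1a1 was at 7.94 ± 0.817. The part of neutrophil or osteoblast-lineage cells in the results was not tested. In these bulk libraries, fewer cells of a type and less RNA per cell cannot be told apart.

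Adgre1 was about 4 times as high in null as in WT macrophages and nearly 7 times as high in null as in WT osteoclast cultures, and it was lower in null than in WT osteoblast cultures. In WT BMM it ranged from 1755 CPM through a median of 1904 to 2084, and in null BMM from 6474 through 7467 to 8356. In WT OC it ranged from 919 through 958 to 998 CPM, and in null OC from 5228 through 7003 to 8453. In WT OB it ranged from 535 through 614 to 708 CPM, and in null OB from 366 through 411 to 527. The 12 null myeloid libraries all lay above the 12 WT myeloid libraries, and the OB groups did not overlap, with null below WT. Null BMM and null OC overlapped each other. The order from high to low was null BMM, null OC, WT BMM, WT OC, WT OB and null OB, and every other pair of neighbours was separate. The fold between genotypes was 3.98 in BMM (log2 fold change 1.99, SE 0.08) and 6.80 in OC (2.77, SE 0.09). In OB, where the level was lower in null, the test could be made (log2 fold change -0.52, SE 0.09, edgeR adjusted p 4.56e-04).

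The groups of 5 of the 7 genes did not overlap between genotypes in BMM, 3 higher and 2 lower in null, where 30.8% of all genes tested were without overlap and 52.3% were called. In OC 3 were higher and 2 lower without overlap, where the shares over all genes were 45.4% and 65.6%. Since these contrasts chose the genes, nothing is read from those counts. In OB, 6 of the 7 passed the low-count filter, and 5 of these were called, 1 higher and 4 lower, against 32.5% of all genes. Of the 6, 4 did not overlap, 1 higher and 3 lower, against 15.8% of all genes. Correcting the counts for trends with transcript length and GC content lowered the number of genes called in OB from 4420 to 2289, and Adgre1, Adgre5, Cd68 and Lyz2 stayed past the threshold with it.

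**Figure D1:**
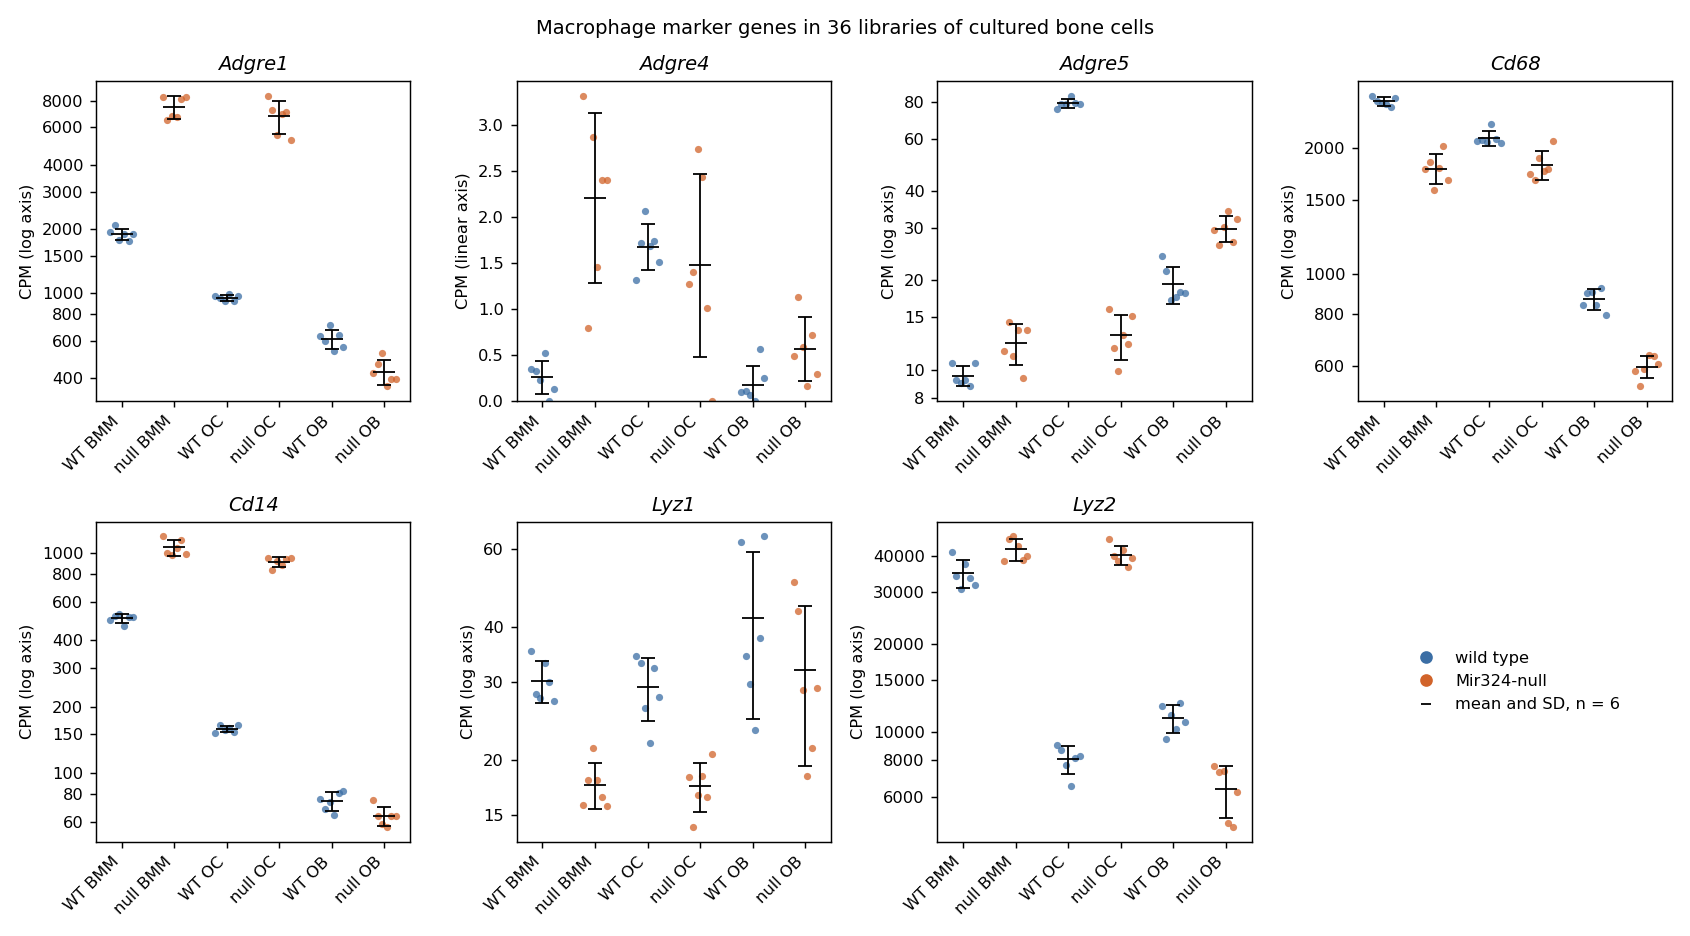
CPM of the 7 marker genes in each of the 36 libraries (points), by group on the x axis, with the mean and SD of 6 libraries as a bar; the y axis is logarithmic except for Adgre4. Adgre1 lies at 5228 to 8453 CPM in the null BMM and null OC libraries and at 919 to 2084 CPM in the WT ones, while Lyz1 is lower in the null myeloid groups.

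Levels of different genes can be compared only per transcript length, as in the deposited TPM (a share of all transcripts after division by length). On that scale Lyz2 was the highest of the 7 in every group, with a mean of 45768 TPM in WT BMM. In the 4 WT OC, WT BMM, WT OB and null OB groups Cd68 came next and then Adgre1, for example 3614 ± 73.6 and 873 ± 52.8 TPM (SD, n = 6) in WT BMM. In null BMM and null OC the order of these 2 genes was turned round in the group means, with Adgre1 at 3162 ± 577 and 2934 ± 552 TPM and Cd68 at 2288 ± 247 and 2393 ± 170 TPM. Adgre1 was above Cd68 in 6 of 6 null BMM libraries and in 4 of 6 null OC libraries, replicates 3 and 6 being the exceptions. Cd14 came after these 3 genes in all 6 groups, and Adgre4 was the lowest in all 6.

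The other macrophage genes did not follow Adgre1 in BMM. In BMM 52.3% of all genes were called (edgeR quasi-likelihood test, adjusted p under 0.05). Of the 18 other macrophage genes, 1 was higher, 13 were lower and 4 were not called in null BMM. The list thus ran opposite to Adgre1 there. Among the lower ones, the mannose receptor Mrc1 had 243 ± 42.7 CPM in null and 1214 ± 86.7 in WT BMM. In null OC, where 65.6% of all genes were called, 15 of the 18 were higher and none was lower. Among these, the complement gene C1qb had 2251 ± 308 CPM against 633 ± 37.4 in WT OC. Set against the summed CPM of these 18 genes in the same library, Adgre1 amounted to 8.42 to 9.01% in WT BMM and 39.4 to 60.1% in null BMM, and to 11.7 to 13.1% in WT OC and 39.3 to 51.3% in null OC. The sum itself was lower in null BMM, at a mean of 15972 CPM against 21858 in WT, and higher in null OC, at 14152 against 7974. In OB the same ratio was 7.22 to 8.76% in WT and 7.47 to 9.42% in null, and the groups overlapped.

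**Figure D2:**
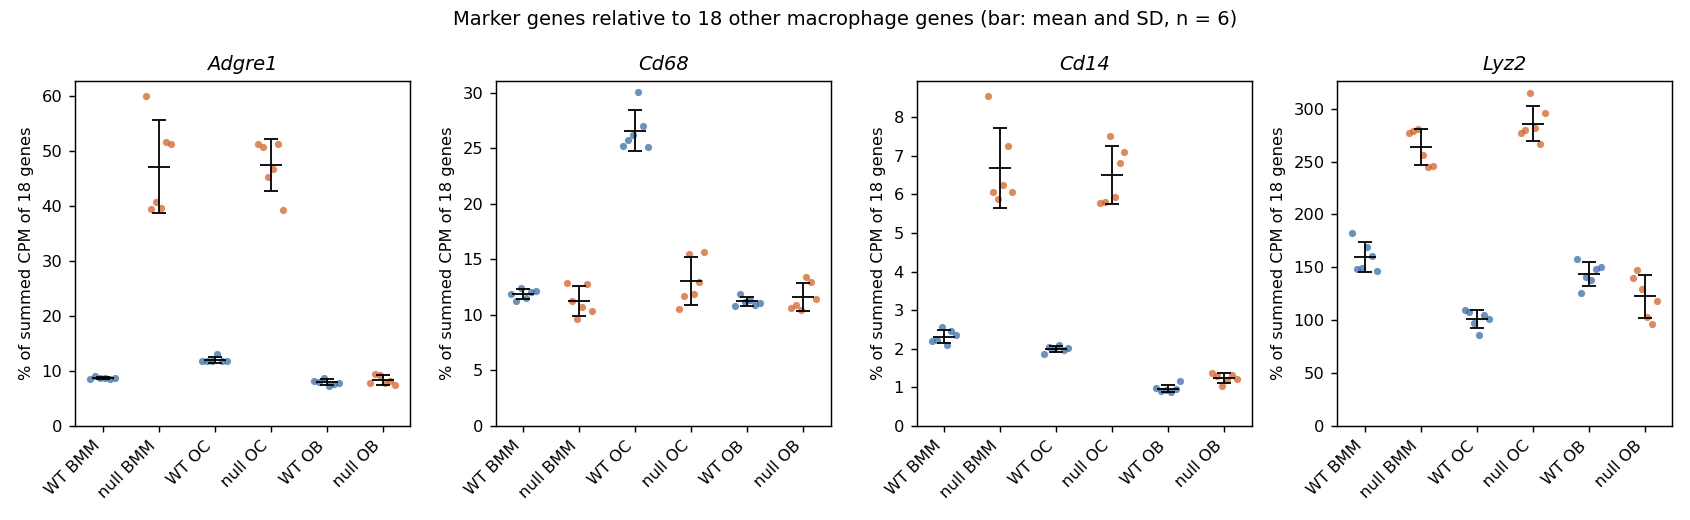
CPM of Adgre1, Cd68, Cd14 and Lyz2 as a percentage of the summed CPM of 18 other macrophage genes in the same library (points; bars are the mean and SD of 6 libraries), by group. Adgre1 stands at 39.4 to 60.1% in the null BMM libraries against 8.42 to 9.01% in WT BMM, while in osteoblast cultures the genotypes overlap for all 4 genes.

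Adgre4 was close to the limit of detection throughout. It had 0 to 9 counts per library in WT BMM, 15 to 61 in null BMM, 26 to 48 in WT OC, 0 to 60 in null OC, 0 to 10 in WT OB and 3 to 21 in null OB. In CPM its lowest, median and highest values were 0, 0.276 and 0.517 in WT BMM and 0.797, 2.40 and 3.31 in null BMM, which did not overlap (log2 fold change 3.12, SE 0.48). In OC the ranges overlapped, 1.32 to 2.06 in WT and 0 to 2.74 in null (-0.22, SE 0.45), and null OC replicate 6 had 0 counts. With RANK-L, Adgre4 rose in WT cells (log2 fold change 2.76, SE 0.55, edgeR adjusted p 9.50e-05), and the WT groups did not overlap. In null cells the change of -0.57 (SE 0.46) had an adjusted p of 0.429. Counts this low allow only these coarse statements.

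Adgre5, the CD97 receptor, showed the opposite pattern to Adgre1 in osteoclast cultures. It ranged from 76.02 through 78.6 to 84.1 CPM in WT OC and from 9.89 through 12.7 to 16.0 CPM in null OC, a difference of -2.65 (log2, SE 0.09) between groups far apart. In BMM it ranged from 8.81 through 9.20 to 10.5 CPM in WT and from 9.41 through 12.6 to 14.4 in null, with overlap. That small difference of 0.38 (log2, SE 0.12) fell to 0.10 with an offset for average transcript length and was -0.07 as a log2 ratio of mean TPM. RANK-L raised Adgre5 in WT cells 8.55-fold (log2 fold change 3.10, SE 0.11, edgeR adjusted p 1.35e-19). In null cells it did not pass the test (0.08, SE 0.10, adjusted p 0.657). The overlapping gene Ddx39, an RNA helicase, went the same way with RANK-L in WT cells by less, from 84.5 ± 8.31 to 126 ± 7.25 CPM (log2 fold change 0.62). Its part in the Adgre5 values was not tested.

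In osteoblasts, where the genotype comparison was not used to choose the genes, Adgre5 was higher in null cultures while other markers were lower. It ranged from 17.2 through 18.2 to 24.2 CPM in WT OB and from 26.4 through 29.9 to 34.2 CPM in null OB, without overlap (log2 fold change 0.60, SE 0.10, edgeR adjusted p 3.06e-04). Ddx39 did not pass the test there (0.04, SE 0.09, adjusted p 0.741), while in the myeloid cultures it differed in the same direction as Adgre5, by 0.22 in null BMM (SE 0.07, adjusted p 0.0160) and by -0.28 in null OC (SE 0.10, adjusted p 0.0185).

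Adgre5 has 8 annotated transcripts. Of these, 2 were compared with the main short form for exons that it lacks, and the remaining transcripts were not. Those exons are printed in capitals, each with 15 bases of the neighbouring exons in lower case. A middle form adds 1 exon of 147 bases (chr8:83730111-83730257, minus strand), and a long form adds that exon and another of 135 bases (chr8:83731903-83732037). Both lengths are whole codons, 49 and 45.
Adgre5 exon of the middle form: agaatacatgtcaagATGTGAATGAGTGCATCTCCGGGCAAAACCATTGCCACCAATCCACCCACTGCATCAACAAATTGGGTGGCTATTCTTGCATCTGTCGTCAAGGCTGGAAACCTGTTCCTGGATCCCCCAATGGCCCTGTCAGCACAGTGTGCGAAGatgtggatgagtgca
Adgre5 exon of the long form: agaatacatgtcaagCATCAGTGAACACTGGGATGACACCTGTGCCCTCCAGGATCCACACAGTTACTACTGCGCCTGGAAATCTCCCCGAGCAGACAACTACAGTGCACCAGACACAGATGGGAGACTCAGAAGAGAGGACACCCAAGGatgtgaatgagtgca
The short form, which lacks both, held the largest share of Adgre5 TPM in all 6 groups, from a mean of 44.5% in null OB to 68.7% in null OC. Libraries of 1 group varied widely, for example from 32.1 to 77.0% in WT BMM. The short form has no 31-base stretch of its own, so its share rests on the estimate that divides shared reads. The middle form had a mean share of 12.8% to 27.4%, and the long form one of 3.82% to 10.99%.

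Adgre1 has 2 transcripts in the files. The minor one lacks 87 bases that are spliced out near the 3′ end (chr17:57483168-57483254), and its annotated ends are slightly shorter. The main transcript held 92.8 to 97.8% of Adgre1 TPM in every one of the 36 libraries. Across Adgre1, Adgre5, Cd68 and the lysozyme pair, 30 share comparisons outside the genotype contrasts of the myeloid cultures were made with an exact two-sided permutation test, whose smallest possible p is 0.00216. A single comparison at that smallest p reaches only 0.0649 after adjustment over the 30, which was the lowest adjusted p, so these tests could not call 1 comparison standing alone and say nothing about whether shares were stable.

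**Figure D3:**
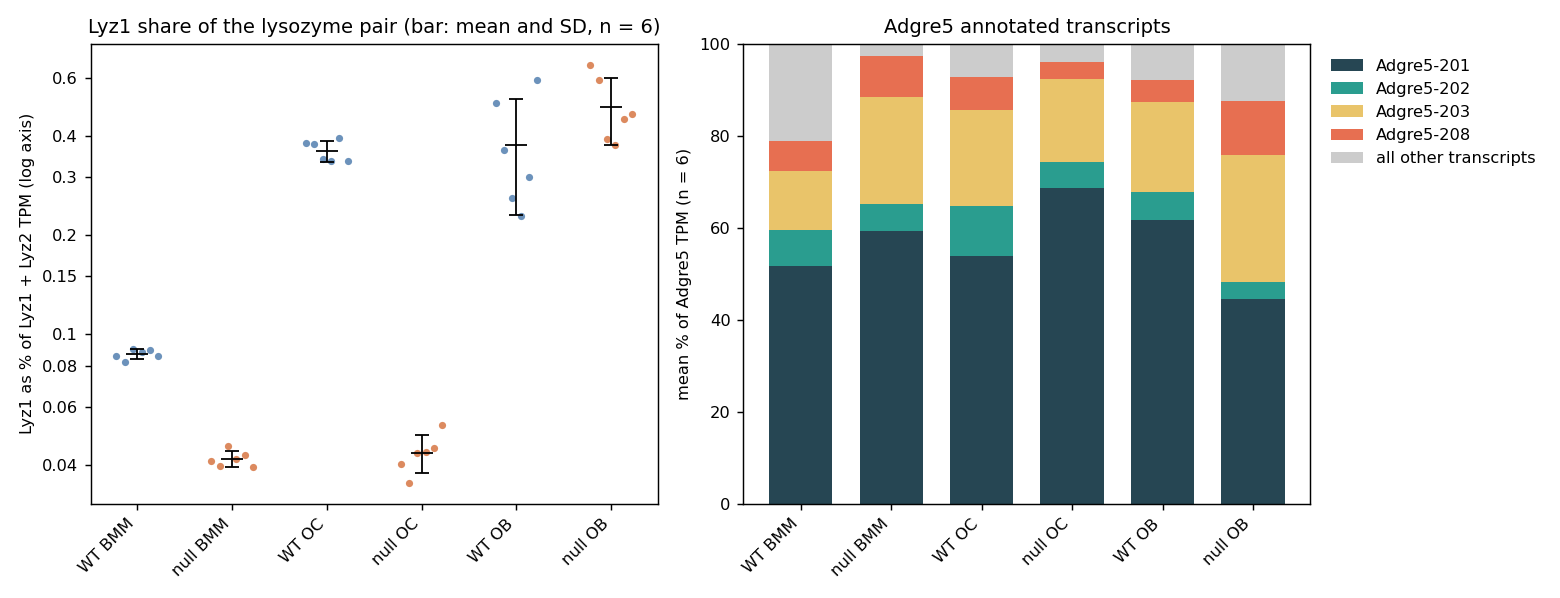
Left, Lyz1 as a percentage of Lyz1 plus Lyz2 TPM in each library (points, logarithmic axis; bars are the mean and SD of 6 libraries). Right, mean shares of Adgre5 TPM by annotated transcript (stacked bars, n = 6); the short form, at the bottom of each bar, is the largest in every group, at 44.5 to 68.7%.

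CD97 ligands were followed as the partners of Adgre5. Of 6 ligand genes, 5 were tested in BMM and OC, and in each of these 2 cell types 2 were higher, 2 lower and 1 not called in null, where 52.3% and 65.6% of all genes were called. Cd55, a regulator of complement, went from 0.283 ± 0.189 CPM in WT to 50.6 ± 4.52 CPM in null BMM. The integrin gene Itgb3 had 473 ± 51.05 CPM in WT OC and 11.8 ± 1.89 in null OC, and Itgav 709 ± 61.8 and 125 ± 14.2. With RANK-L, 4 of the 5 rose in WT cells and none fell, and in null cells 2 rose, against 60.5% and 12.9% of all genes called. Among 27 other adhesion G protein-coupled receptors only 5 to 16 passed the low-count filter in a comparison. In OB 6 of 16 were higher and none was lower in null, a share near the 32.5% of all genes called, and Adgrl2 had 53.6 ± 6.02 CPM in null and 14.7 ± 0.626 in WT BMM.

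Cd68 was lower in null cultures in all 3 cell types, by a modest amount. It ranged from 2511 through 2581 to 2677 CPM in WT BMM and from 1592 through 1790 to 2024 in null BMM, without overlap (log2 fold change -0.52, SE 0.06). In OC the ranges of 2056 to 2289 (median 2088) in WT and 1678 to 2084 (median 1773) in null overlapped through null OC replicate 6 (-0.27, SE 0.06). In OB it ranged from 797 through 870 to 923 CPM in WT and from 536 through 597 to 637 in null, without overlap (-0.55, SE 0.06, edgeR adjusted p 1.07e-05). With RANK-L it fell in WT cells by 0.25 on the log2 scale (SE 0.06, adjusted p 5.29e-04), and in null cells its change was 0.02 (SE 0.06, adjusted p 0.842). As a share of the 18 macrophage genes, Cd68 was 25.1 to 30.1% in WT OC, 11.2 to 12.4% in WT BMM, 9.58 to 12.8% in null BMM and 10.5 to 15.7% in null OC, so WT OC stood apart and the BMM genotypes overlapped. Of the LAMP genes, 2 of 4 were tested. Lamp1 and Lamp2 both fell with RANK-L in WT cells, to 223 ± 60.9 and 419 ± 23.2 CPM, where 60.5% of all genes were called. Both were higher in null than in WT OC, where 65.6% of all genes were called. In BMM, where 52.3% were called, Lamp2 was lower in null (755 ± 49.7 against 1089 ± 45.5 CPM) and Lamp1 was not called.

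Cd14 (ENSMUSG00000051439; chromosome 18, 36725067 to 36726798, minus strand) went the same way as Adgre1 in the myeloid cultures. It ranged from 463 through 511 to 528 CPM in WT BMM and from 980 through 1025 to 1189 in null BMM, and from 153 through 158 to 165 in WT OC and 832 through 928 to 952 in null OC. All 12 null myeloid libraries lay above all 12 WT ones. The differences were 1.08 (log2, SE 0.06) in BMM and 2.47 (SE 0.05) in OC. RANK-L lowered Cd14 in WT cells (-1.62, SE 0.05, edgeR adjusted p 8.75e-20). It also lowered Cd14 in null cells, by 0.22 (SE 0.05, adjusted p 0.00849), and Cd14 was the only one of the 6 genes tested there to pass. In OB Cd14 was low in both genotypes, at 64.3 to 82.6 CPM in WT and 56.8 to 75.4 in null. The OB ranges overlapped, and the difference of -0.23 (SE 0.08) had an adjusted p of 0.0320, which rose to 0.401 once counts were corrected for length and GC trends. The call also failed in 6 of 12 leave-one-out fits, those without WT OB replicates 1, 5 and 6 and null OB replicates 2, 3 and 4 (adjusted p 0.0539 to 0.0932).

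Of 14 genes of the lipopolysaccharide pathway that CD14 serves, 4 were higher, 4 lower and 6 not called in null BMM, a share called near the 52.3% of all genes there. Irak3, an inhibitory member of the kinase family behind the Toll-like receptors, had 254 ± 34.5 CPM in null and 42.1 ± 4.58 in WT BMM, and 249 ± 26.4 and 18.5 ± 1.22 in OC. Traf6, an adaptor used by both TLR4 and the RANK-L receptor, had 17.2 ± 3.83 CPM in null and 49.8 ± 1.99 in WT BMM. In OB 1 was higher and 2 were lower of 14, where 32.5% of all genes were called. In WT cells, RANK-L lowered Tlr4 from 136 ± 6.08 to 58.0 ± 3.35 CPM.

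Lyz2, the most abundant of the 7, overlapped in CPM between the BMM genotypes and was far apart in OC. It ranged from 30747 through 33896 to 41267 CPM in WT BMM and from 38562 through 41526 to 46718 in null BMM, with overlap (log2 fold change 0.29, SE 0.08). In OC it ranged from 6509 through 8226 to 9016 CPM in WT and from 36715 through 39725 to 45590 in null (2.27, SE 0.08). Relative to the summed CPM of the 18 other macrophage genes, Lyz2 was 147 to 182% in WT BMM and 245 to 281% in null BMM, without overlap. In OC that ratio was 85.4 to 109% in WT and 267 to 315% in null. RANK-L lowered Lyz2 in WT cells 4.19-fold (log2 fold change -2.07, SE 0.08, edgeR adjusted p 3.33e-18), and in null cells the change of -0.07 (SE 0.08) had an adjusted p of 0.579. In OB Lyz2 was lower in null, from 4728 through 6771 to 7647 CPM against 9458 through 11100 to 12565 in WT, without overlap (-0.82, SE 0.12, adjusted p 2.24e-04).

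Lyz1 moved apart from its neighbour in the myeloid cultures. It ranged from 27.3 through 29.1 to 35.3 CPM in WT BMM and from 15.7 through 17.3 to 21.3 in null BMM, and from 21.9 through 30.0 to 34.4 in WT OC and 14.1 through 17.5 to 20.7 in null OC. Neither pair of groups overlapped (-0.77, SE 0.10, and -0.80, SE 0.12). RANK-L changed Lyz1 by 0.00 in WT cells (log2, SE 0.11, adjusted p 0.998) while Lyz2 fell. Lyz1 averaged 0.0869% of the pair's TPM in WT BMM and 0.361% in WT OC, and the groups did not overlap. The exact permutation p of 0.00216 was the smallest possible, and its adjusted value of 0.0649 is the lowest that 1 such comparison alone can reach here. In OB Lyz1 was variable, 23.4 to 64.3 CPM in WT and 18.4 to 50.7 in null, and did not pass the test (-0.41, SE 0.31, edgeR adjusted p 0.359). Among 7 other lysozyme-like genes only Lyzl4 passed the low-count filter, at 11.6 ± 1.12 CPM in WT BMM and 5.52 ± 0.774 in null BMM. In OC the direction was the other way, with Lyzl4 at 3.33 ± 0.718 CPM in WT and 5.53 ± 0.774 in null.

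The lower markers in null OB went with the rest of the macrophage set. Of the 18 other macrophage genes, 14 were lower, none was higher and 4 were not called in null OB. The signalling adaptor Tyrobp was at 237 ± 5.90 against 374 ± 24.7 CPM and Fcer1g at 274 ± 34.6 against 487 ± 35.8. The summed level of the 18 genes was 4760 to 5673 CPM in null and 7211 to 8482 in WT OB. Osteoblast genes summed to 97170 to 116333 CPM in null and 54571 to 78260 in WT OB. In null OB 6 of 10 osteoblast and 5 of 10 osteoclast genes were higher and none was lower. Of all genes, 32.5% were called in OB in either direction. Relative to the macrophage sum, Cd68 was 10.4 to 13.4% in null and 10.8 to 11.9% in WT OB, and Lyz2 was 96.3 to 148% and 125 to 158%, both with overlap. The part of a smaller share of macrophages in the null OB cultures was not tested.

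The response to RANK-L differed between genotypes for most of the genes. In WT cells 5 of the 6 genes tested changed, 2 up and 3 down, where 60.5% of all genes were called. In null cells 1 of the 6 changed, where 12.9% of all genes were called. That background of 1628 genes fell to 840, 810 and 948 without null BMM replicates 2, 3 and 4 and to 1046 without null OC replicate 3, and was 985 with the replicate number as a block and 1037 with limma-voom. The difference of the responses passed the test for 5 of the 6, against 51.4% of all genes: Adgre5 at -3.02 (log2, SE 0.15, edgeR adjusted p 8.34e-16), Adgre4 at -3.33 (SE 0.72), Lyz2 at 2.00 (SE 0.11), Cd14 at 1.40 (SE 0.07) and Cd68 at 0.27 (SE 0.08). For Lyz1 it was -0.02 (SE 0.16, adjusted p 0.939). Adgre1, given without a test, changed by -0.94 (log2, SE 0.09) in WT and by -0.16 (SE 0.08) in null cells. All 18 other macrophage genes fell with RANK-L in WT cells, and 5 of 18 fell in null cells. These comparisons share their BMM and OC libraries with the genotype comparisons.

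**Figure D4:**
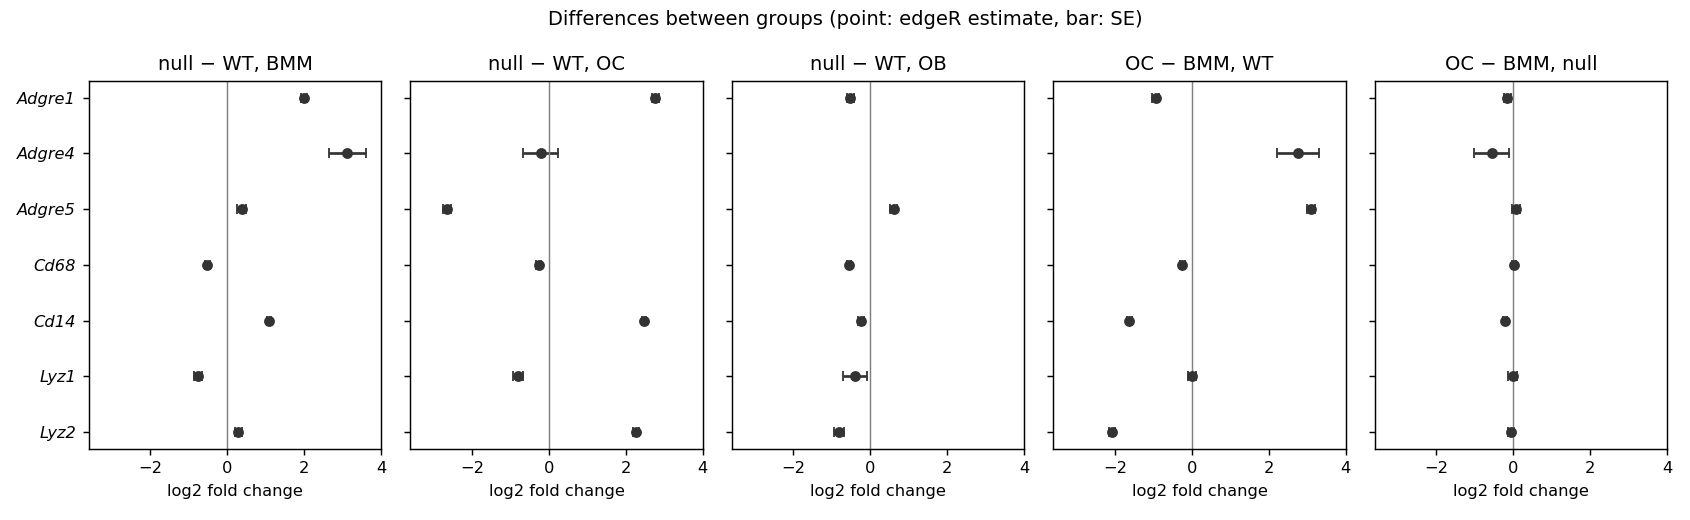
Log2 fold change of each of the 7 genes (points; bars are the SE) in 5 comparisons: null minus WT in BMM, OC and OB, and OC minus BMM in WT and in null cells; Adgre4 has no point in OB because it did not pass the low-count filter. In WT cells the RANK-L points run from -2.07 for Lyz2 to 3.10 for Adgre5, and in null cells all but that of Adgre4 lie between -0.22 and 0.08.

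Of 15 macrophage transcription factors, 2 were higher, 9 lower and 4 not called in null BMM, and 8 were higher, 5 lower and 2 not called in null OC, where 52.3% and 65.6% of all genes were called. Nr1h3, the lipid-sensing receptor LXR alpha, had 47.0 ± 3.87 CPM in null and 7.39 ± 0.696 in WT BMM. Irf8, a factor that holds back osteoclast formation, fell with RANK-L from 271 ± 8.96 to 31.9 ± 1.45 CPM in WT cells and was at 208 ± 28.4 CPM in null OC. Bhlhe40 rose with RANK-L from 43.3 ± 3.99 to 391 ± 25.1 CPM in WT cells and was at 29.8 ± 2.07 CPM in null OC. In OB, 3 were higher and 4 lower of 15, where 32.5% of all genes were called.

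The genes most like Adgre1 across the 36 libraries, by Pearson correlation of log2 CPM among 8950 genes with a mean of at least 10 CPM, were Smpdl3a (r = 0.994), Ebi3 (0.991), Acp2 (0.990), Rassf4 (0.989) and Mmp8 (0.983). These correlations are descriptions, since the libraries fall into 6 groups and share those differences. Smpdl3a, a phosphodiesterase related to acid sphingomyelinase, averaged 266 CPM in WT BMM, 669 in null BMM, 172 in WT OC and 620 in null OC. Mmp8, a collagenase best known from neutrophils, averaged 21.9, 214, 12.9 and 262 CPM in the same groups. Ranked by Spearman correlation, 1 of the 5 remained, and over the 24 BMM and OC libraries 2 of the 5 did. Of the 7 genes themselves, Cd14 was most like Adgre1 (r = 0.970), then Lyz2 (0.907) and Cd68 (0.631), while Lyz1 (-0.710) and Adgre5 (-0.565) ran against it. The gene most like each of the others was Fyb for Cd14 (0.989), Cat for Lyz2 (0.986), Grk3 for Adgre5 (0.979), Lpxn for Cd68 (0.976), Rpl22l1 for Lyz1 (0.797) and Nfkbie for Adgre4 (0.776).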

How the data were processed

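The 36 libraries were grouped by genotype and cell type from the labels, 6 per group. Per the file headers, each deposited table gives a transcript's length, effective length, estimated count and TPM. Kallisto and DESeq2 are named, without versions, in the submitters' processing notes, with a human build, although the identifiers are those of mouse transcripts; 97.5% matched GENCODE M21 (GRCm38). Unmatched transcripts held 0.63 to 0.97% of the counts and were left out. The estimated counts were deposited by the authors without normalization; here they were summed per gene (30205 genes) and rounded. TPM values, also deposited, carry no depth. The 14118972 to 26347581 counts per library set the precision.

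After filterByExpr and TMM scaling, genes were tested with the quasi-likelihood method of edgeR 4.0.16 (robust; R 4.3.3, limma 3.58.1), with Benjamini-Hochberg adjustment over all genes tested and a threshold of 0.05. Genotypes were compared on the 12 libraries of a cell type, and RANK-L and its interaction with genotype on 24. The genotype fits and the RANK-L fit in WT cells were tested on simulated data. Those data had the same spread setting for every gene and far fewer changed genes than were called here. They check the code and not the calls made here. Log2 CPM used a prior count of 2.

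The 7 genes and all lists were chosen with earlier results of these data known. Named were the 7 genes, the 5 genes most like Adgre1 and the 1 most like each other gene, and from each list at most the 2 genes with the smallest p in a comparison. Ddx39 was added, after values were seen, because it overlaps Adgre5. The 15 lists were 6 of pathways and 9 of cell type markers; monocyte, dendritic and adipocyte genes summed to at most 119, 20.7 and 23.5 CPM in any library, and neutrophil genes to at most 114. Same-numbered replicates deviated together from their group means only weakly (correlations of at most 0.165), so they were not treated as pairs. The alternatives tried were DESeq2 1.42.0, RLE factors, limma-voom with quality weights, a minimum mean of 10 counts or no filter, a block for the replicate number, offsets for average transcript length and for a length and GC trend (lowess span 0.3), all 36 libraries in 1 fit, Lyz1 and Lyz2 added, leaving out each library, deposited TPM, and shares of counts. The labels name no batch.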

Additional observations from a re-analysis of the deposited data

Results flagged for a closer look

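In WT OC, Cd68 in replicate 4 stood at 2289 CPM, apart from the other 5 libraries, whose values ran from 2056 to 2102. It was 1 of 42 groups of 6 examined in this way, and chance marks about 1 in 20.

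The change with RANK-L differed between null and WT cells, by a test of the difference itself (edgeR, adjusted over all genes), for 5 of the 6 genes tested. That test called 51.4% of all genes. On the log2 scale, null minus WT, the difference was -3.33 for Adgre4, -3.02 for Adgre5, 0.27 for Cd68, 1.40 for Cd14 and 2.00 for Lyz2. For Adgre4 and Adgre5 the WT groups rose and the null groups did not pass the test. For Lyz2 and Cd68 the WT groups fell and the null groups did not pass the test, and Cd14 fell in both. The same null cultures held 421 to 772 CPM of summed osteoclast genes against 29653 to 31879 in WT OC, and the part of osteoclast formation in these differences was not tested.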

How the results depend on the processing

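The genotype counts in BMM and OC, and the counts for RANK-L in WT cells and for the interaction, stayed within 1.5 times under every alternative run. In OB the offset for length and GC content gave 2289 genes in place of 4420. For RANK-L in null cells limma-voom gave 1037 in place of 1628, and leaving out 1 library gave 810 to 2143, with 840, 810 and 948 without null BMM replicates 2, 3 and 4 and 1046 without null OC replicate 3. Of the edgeR calls made for the 7 genes, that of Cd14 in OB failed under the offsets for average transcript length (-0.21, adjusted p 0.0625) and for length and GC (-0.11) and in 6 leave-one-out fits; the others were past the threshold in every alternative that gave a value. The log2 ratio of mean levels of Adgre5 in null over WT BMM turned to -0.0687 in TPM, and that of the summed monocyte genes in OB to -0.00788; the cause was not tested. Cd68 in BMM was -0.63 with the length and GC offset.

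With the replicate number as a block, the RANK-L count in null cells was 985 and no call of the 7 genes changed. The deviations of same-numbered libraries from their group means correlated between -0.278 and 0.165. In no comparison did every sample correlate best with its own number. Between WT BMM and WT OC 3 of 6 did, with a median of 0.042 for the same number and 0.005 for other numbers.

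Depth limits Adgre4 most, with at most 61 counts in any library.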
